A study of Mus musculus with 11 samples.

Results

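The microRNAs described here are 5 mature arms of the miR-7 and miR-671 hairpins, whose guide arms pair with Cdr1as, a circular RNA of neurons. They are mmu-miR-7a-5p, mmu-miR-7b-5p, mmu-miR-7a-1-3p, mmu-miR-671-5p and mmu-miR-671-3p (mmu, for mouse, is left out from here on), and they were chosen by name from the 1907 mature miRNA names that each deposited count table lists. The libraries came from the brains of male Balb/cOlaHsd mice, collected 3 days after surgery, with an age of 3 months by the labels and a wider range in the methods. In the pMCAO group (n = 5), the middle cerebral artery was closed permanently by heat, a stroke model without reperfusion. In the sham group (n = 6), the artery was exposed and lifted but not closed. By the labels, sham tissue was cortex and pMCAO tissue was peri-ischemic cortex, while the methods call the tissue of both groups peri-ischemic. If the labels hold, operation and region cannot be told apart. The names of the tables also carry the word vehicle in both groups, and the labels name no agent.

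A mature miRNA guides an Argonaute protein to RNAs that pair with its seed, the bases near its 5′ end. Each hairpin yields 2 arms, the guide, which Argonaute keeps more often, and the passenger. miR-7 is a conserved miRNA of neurons and of neuroendocrine cells, and Cdr1as is its best known partner, a stable circular RNA with many miR-7 seed matches. miR-671-5p pairs with Cdr1as over most of its length and can direct Argonaute to cut it. A further partner, the long noncoding RNA Cyrano, pairs with miR-7 beyond the seed and triggers its destruction. The deposited tables hold miRNA counts only, so the levels of Cdr1as and Cyrano were not analysed here.

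The mature sequences, from RefSeq on GRCm38.p6, are printed because the arms are told apart by few bases. All 5 names were found there. Capitals mark the seed, bases 2 to 8 from the 5′ end.
miR-7a-5p: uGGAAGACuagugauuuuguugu
miR-7b-5p: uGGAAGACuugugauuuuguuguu
miR-7a-1-3p: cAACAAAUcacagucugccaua
miR-671-5p: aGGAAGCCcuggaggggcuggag
miR-671-3p: uCCGGUUCucagggcuccacc
miR-7a-5p and miR-7b-5p share the seed GGAAGAC, and no other mature name in the RefSeq table used has it. Counted from the 5′ end, they differ over their 23 shared positions only by A10U, and miR-7b-5p ends 1 base later. In that table the seed of miR-671-5p, GGAAGCC, belongs to this arm alone, as do the seeds of miR-7a-1-3p and miR-671-3p.

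miR-7a-5p has the same sequence in both of its hairpins, Mir7-1 (mature arm at chr13:58392841-58392863, minus strand) and Mir7-2 (chr7:78888295-78888317, plus strand), so its count cannot be assigned to one of them. The opposite arms of the hairpins do differ, and miR-7a-1-3p (chr13:58392800-58392821) comes from Mir7-1 alone. In the GENCODE vM21 annotation of GRCm38, Mir7-1 lies in an intron of Hnrnpk, which encodes an RNA-binding protein, with 12 transcripts that span it and 0 with an exon across it. Mir7-2 and Mir7b (miR-7b-5p at chr17:56243017-56243040, plus strand) lie in no other annotated gene. Mir671 (miR-671-5p at chr5:24592132-24592154 and miR-671-3p at chr5:24592171-24592191, plus strand) lies whole within a coding exon of Chpf2, a gene of chondroitin synthesis, and opposite an exon of a Smarcd3 transcript that is not protein-coding.

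To show what these arms can pair with, the 2927-base exon of Cdr1as was searched. It is annotated as a transcript of C230004F18Rik at chrX:61183248-61186174 on the plus strand of GRCm38, antisense to Cdr1. The 7-base match to the miR-7 seed, GTCTTCC, occurred 123 times on the sense strand and 0 times on the antisense strand. Of 25517 transcripts cut to the same length, 23.9% held it at all, and none held it more than 4 times. Starts of neighbouring matches lay 17 to 109 bases apart with a median of 18, and 34 of the 123 matches were followed by an A. The match to the miR-671-5p seed, GGCTTCC, was present 1 time on the sense strand, and 29.3% of the transcript windows held at least 1. The matches to the seeds of miR-7a-1-3p (ATTTGTT) and miR-671-3p (GAACCGG) were not found on either strand, while 21.8% and 8.51% of the windows held them. The sequence is that of the C57BL/6J reference and not of the strain studied, and a match is a description of letters and not a measured site.

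**Figure D1:**
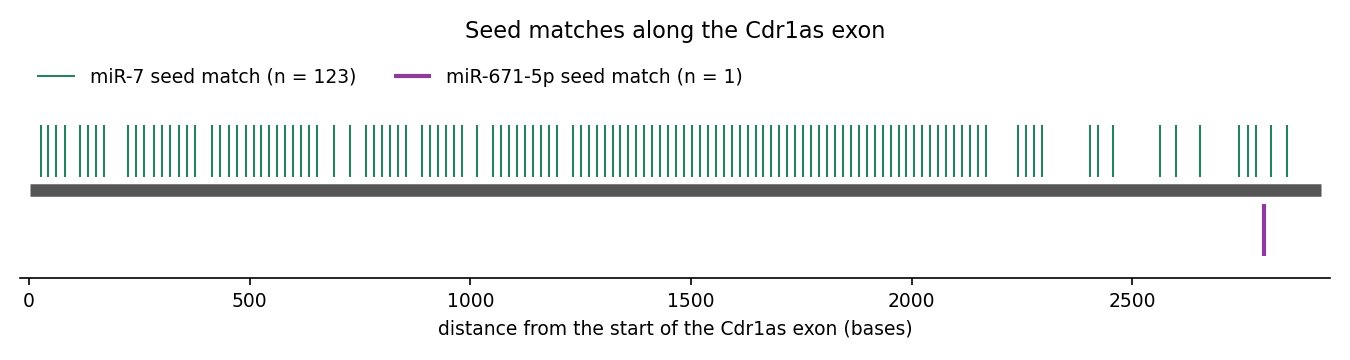
Seed matches along the Cdr1as exon. The x axis is the distance in bases from the start of the exon, green lines above the bar are the 123 miR-7 seed matches and the purple line below it is the 1 miR-671-5p seed match, which lies near the end of the exon.

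The next windows, all on the plus strand of GRCm38 and 5′ to 3′, contrast seed pairing with longer pairing. For miR-7 capitals mark the seed match, and for miR-671-5p they mark every base that pairs without a gap or a wobble.
miR-7 site nearest the exon start, chrX:61183258-61183280: ggtgccagtaccaagGTCTTCCa
miR-7 site with the most pairs, chrX:61183571-61183593: tccagaaaaatccaaGTCTTCCa
miR-671-5p site, chrX:61186029-61186051: tTCCAGCatCTCCAGGGCTTCCa
Cyrano site at its base 2952, chr2:119602132-119602161: taagaacaacaaaatcaccaatGTCTTCCa
At the miR-671-5p site 19 of its 23 bases paired, leaving bases 1, 15, 16 and 23 unpaired, and 38 of the 25517 windows held a site with as many pairs. The best site for miR-7a-5p in the exon paired 16 of its 23 bases, and 1013 of the 25517 windows held a site with at least as many pairs. Beyond the seed, the 123 miR-7 matches paired 0 to 8 of the remaining 15 bases of miR-7a-5p. Their longest unbroken stretch of complement to those bases was 2 to 7 bases within the 30-base window, with a median of 5. In Cyrano (1700020I14Rik), 1 of 2 seed matches stood beside 13 unbroken bases of complement to miR-7a-5p, from its base 11 to its base 23, and to miR-7b-5p this stretch was 14 bases.

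Each library held raw counts, which were scaled to CPM, the counts of a miRNA relative to a common library size, with edgeR's TMM factors. The sham libraries held 1429037 to 2319810 counts and the pMCAO libraries 744877 to 1411620, so depth separated the groups without overlap. A miRNA with 3 counts in the shallowest library would stand at 4.03 CPM. Sham replicate 5 had the lowest median correlation with its own group, 0.973, by a small margin, since the other sham libraries had 0.978 to 0.990 and the pMCAO libraries 0.9752 to 0.982. It stood apart more clearly in the ratios between the arms of a hairpin, so results that rest on it are given with and without it. The labels name no sequencing batch, and no pair of libraries of a group was the same library deposited again (all 25 pairs differed beyond sampling noise, the closest with a chi-square over its degrees of freedom of 17.985). The neuronal miR-124-3p was the most abundant miRNA of all. Of the 8 neuronal miRNAs listed, all were measured, and together they made up 338463 to 428011 CPM in sham and 288887 to 341141 CPM in pMCAO libraries.

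All 5 arms passed the filter on low counts that kept 479 miRNAs, and 0 of the 5 differed between pMCAO and sham at an adjusted p under 0.05 (edgeR quasi-likelihood test, Benjamini-Hochberg adjusted). Of all 479 miRNAs, 7.1% passed that threshold, 4.38% as higher and 2.71% as lower in pMCAO. None of the 5 had an unadjusted p under 0.05, where 24.4% of all tested did, and 0 of the 5 had groups without overlap, where 7.52% of all tested did. The fitted differences pointed up for both miR-7 guide arms and down for the other 3. In tissue RNA, fewer cells of a type and less of a miRNA per cell cannot be told apart.

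By level, the order was the same in both groups for the 4 most abundant arms, miR-7a-5p, miR-7b-5p, miR-671-5p and miR-7a-1-3p. miR-7a-5p stood above miR-7b-5p in every library with no overlap between their values. miR-7b-5p stood above miR-671-5p in 6 of 6 sham and 5 of 5 pMCAO libraries, although their ranges over libraries overlapped. In 5 of 6 sham libraries, with overlapping ranges, and in all 5 pMCAO libraries, miR-671-5p stood above miR-7a-1-3p. CPM counts reads of arms of similar length, and reads of different sequences are not measured amounts of molecules.

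miR-7a-5p is the more abundant miR-7 guide, 71st of the 479 miRNAs by level. In sham libraries its lowest, median and highest levels were 1448, 1677 and 2445 CPM. The pMCAO libraries 1 to 5 held 1638, 2258, 1590, 2404 and 2815 CPM. Only pMCAO replicate 5 exceeded every sham library, and replicates 1 and 3 lay within the lower part of the sham range, so the groups overlapped. The means were 1817 ± 383 CPM in the 6 sham and 2141 ± 523 CPM in the 5 pMCAO libraries (± SD), a fitted log2 fold change of 0.24 (SE 0.18). Its 95% confidence interval ran from -0.14 to 0.62, or from 0.906-fold to 1.53-fold, and its adjusted p was 0.469 (edgeR quasi-likelihood test, Benjamini-Hochberg adjusted). A log2 change larger in size was fitted for 42.8% of the tested miRNAs, whose median was 0.00.

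miR-7b-5p, the paralog with the same seed, ranked 100th. Its sham levels had a lowest value of 721, a median of 784 and a highest value of 981 CPM. In pMCAO libraries 1 to 5 it stood at 774, 1030, 688, 1109 and 1197 CPM. Replicates 2, 4 and 5 of pMCAO were above all sham libraries and replicate 3 was below all of them. Among themselves, the 5 pMCAO libraries stood in the same order as for miR-7a-5p. The means of 819 ± 105 CPM (SD, n = 6) and 959 ± 219 CPM (SD, n = 5) gave a log2 fold change of 0.23 (SE 0.15, 95% confidence interval -0.10 to 0.56, adjusted p = 0.418, edgeR quasi-likelihood test, Benjamini-Hochberg adjusted). The interval spans 0.933-fold to 1.47-fold, so no change and a rise of up to that size could not be told apart.

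The spread of the guides between libraries was far above counting error. For miR-7a-5p the coefficient of variation was 21.1% in sham and 24.4% in pMCAO, where counting alone gives 1.88% and 2.13%. For miR-7b-5p it was 12.8% and 22.8%, against 2.78% and 3.16%. Counting error was thus a small part of the spread for both guides.

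**Figure D2:**
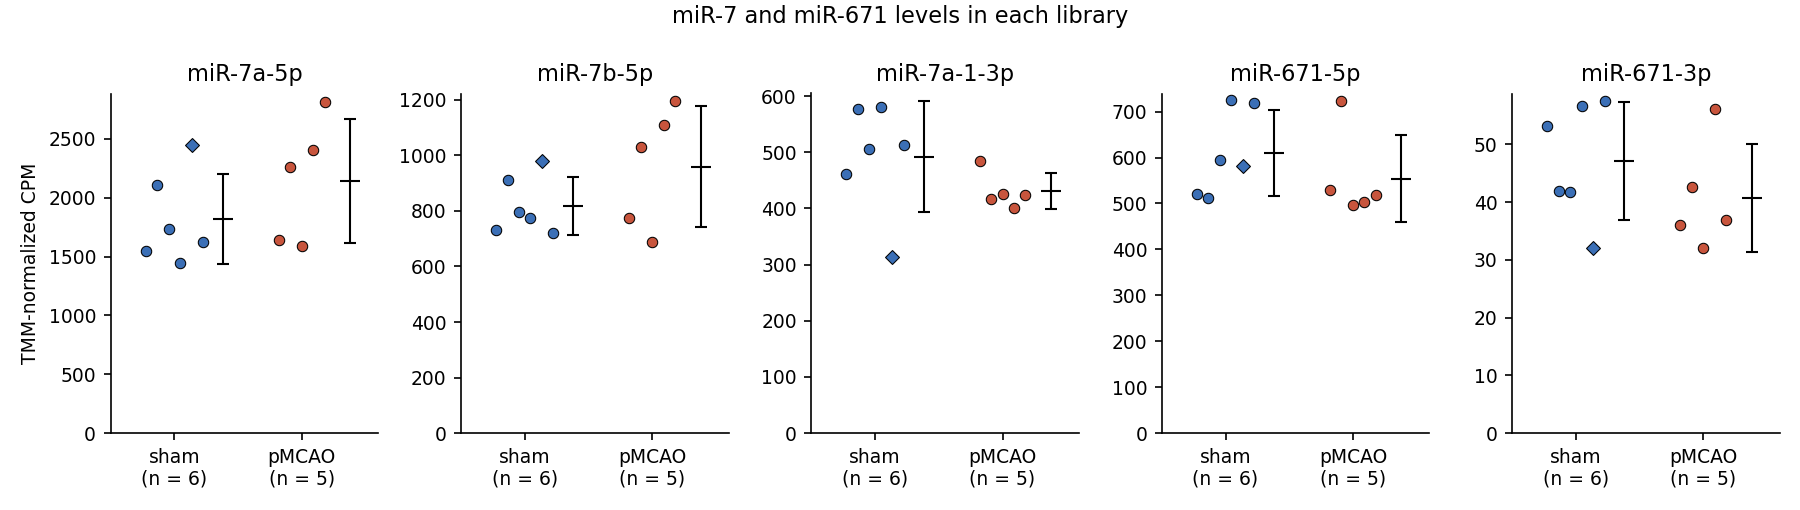
Levels of the 5 arms in each library. The y axis is TMM-normalized CPM from 0, each point is 1 library (6 sham, blue; 5 pMCAO, red; the diamond is sham replicate 5) and the black bars are the mean ± SD. The 2 groups overlap for every arm, and pMCAO replicates 2, 4 and 5 are the 3 highest pMCAO libraries for both miR-7a-5p and miR-7b-5p.

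Since both guides carry one seed, they were also summed. The sum ran from 2221 to 3426 CPM in sham with a median of 2435, and it was 2412, 3288, 2278, 3512 and 4012 CPM in pMCAO libraries 1 to 5. Its means were 2636 ± 483 CPM (SD, n = 6) and 3100 ± 739 CPM (SD, n = 5). miR-7b-5p supplied 28.6% to 34.8% of the sum in sham and 29.8% to 32.1% in pMCAO libraries. The 2 guides thus kept nearly one proportion while their sum varied.

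The ratio of miR-7b-5p to miR-7a-5p does not depend on how libraries are scaled. It had a median of 0.451 in sham (0.401 to 0.534) and of 0.456 in pMCAO (0.425 to 0.473). The difference of the mean log2 ratios, pMCAO minus sham, was -0.021 (exact permutation test, two-sided, p = 0.771, adjusted over 3 ratios 0.771). After subtracting the group means, the log2 levels of the 2 guides had a Pearson r of 0.95 over the 11 libraries and 0.95 without sham replicate 5. These points share library, depth and base composition, and reads of near-identical sequences could be shared between both names, so r is given as a description.

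**Figure D3:**
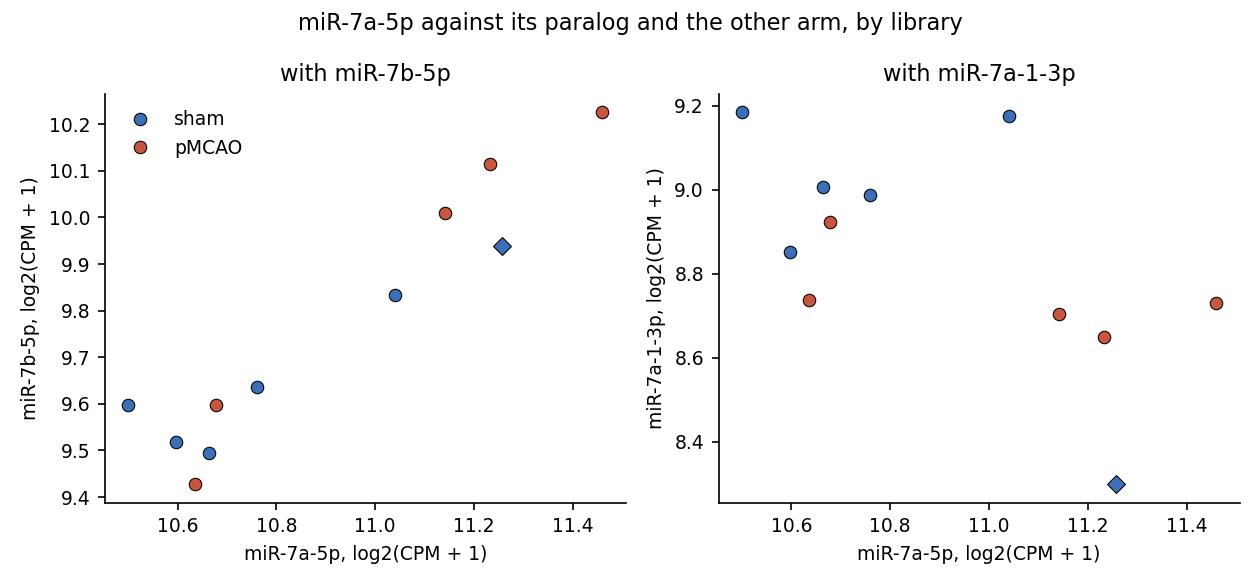
miR-7a-5p (x axis, log2(CPM + 1)) against miR-7b-5p (left) and miR-7a-1-3p (right), with y axes also in log2(CPM + 1), 1 point per library (sham blue, pMCAO red, diamond sham replicate 5). The 11 libraries lie close to a line on the left, and on the right sham replicate 5 stands alone at the lower end of the miR-7a-1-3p axis.

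miR-7a-1-3p, the passenger arm of Mir7-1, had sham levels of 314, 510 and 581 CPM (lowest, median and highest). The pMCAO libraries 1 to 5 held 485, 416, 426, 401 and 424 CPM. The lowest value belonged to sham replicate 5, and each other sham library except replicate 1 (461 CPM) lay above every pMCAO library. The means were 492 ± 98.5 CPM (SD, n = 6) and 430 ± 32.0 CPM (SD, n = 5), and the fitted log2 fold change was -0.19 (SE 0.14, 95% confidence interval -0.51 to 0.12, adjusted p = 0.469, edgeR quasi-likelihood test, Benjamini-Hochberg adjusted). Without sham replicate 5 the log2 fold change was -0.29, with an unadjusted p of 0.0133 and an adjusted p of 0.0985 by the same test, and the arm was again not called. That library was singled out by ratios that use this arm, so the p without it is a description.

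Guide and passenger arms of a hairpin are cut from 1 precursor. The ratio of miR-7a-5p to miR-7a-1-3p, to which Mir7-2 also adds guide reads, was 2.49 to 7.79 in sham libraries with a median of 3.39. Sham replicate 5 gave the highest value, and the other 5 sham libraries reached at most 3.65. In pMCAO libraries 1 to 5 the ratio was 3.38, 5.43, 3.73, 6.00 and 6.64. Replicates 2 to 5 of pMCAO exceeded these 5 sham libraries, and none exceeded sham replicate 5. The log2 ratio was higher by 0.39 in pMCAO (exact permutation test, two-sided, p = 0.229, adjusted over 3 ratios 0.688). Without sham replicate 5 the difference was 0.61, with an exact two-sided permutation p of 0.0238 and 0.0714 after adjustment over the 3 ratios. Sham replicate 5 was set apart by this same ratio, so the p without it is a description and not a test.

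Within groups, miR-7a-5p and miR-7a-1-3p had a Pearson r of -0.53 over 11 libraries, which became -0.19 without sham replicate 5. Among the 151 hairpins with both arms tested, 103 had a positive r, the median was 0.19, and 6, Mir7-1 included, had an r as low as that of Mir7-1 or lower. Hairpins that yield the same arms, such as Mir9-1 and Mir9-2, were counted separately. The difference in arm ratio between the groups was at least as large in size as that of Mir7-1 for 26 of the 151, Mir7-1 included, and groups without overlap were found for 0 of the 151 (0%). Sham replicate 5 lay outside the other sham libraries for the arm ratio of 81 of the 151 hairpins, where each of the other 5 sham libraries did so for 22 to 56. Its log2 arm ratio stood above the mean of the other sham libraries by 1.29 for Mir7-1, 1.33 for Mir7-2, 1.51 for Mir7b and 0.56 for Mir671, with a median over all 151 of 0.11.

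The other passenger arms of the miR-7 hairpins were measured at low levels.
miR-7a-2-3p: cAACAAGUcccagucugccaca
miR-7b-3p: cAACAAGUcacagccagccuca
They share the seed AACAAGU (capitals), which departs from that of miR-7a-1-3p by A7G counted from the 5′ end. miR-7a-2-3p, from Mir7-2 alone (chr7:78888335-78888356), had 67.0 ± 21.3 CPM in sham (SD, n = 6) and 85.8 ± 24.9 CPM in pMCAO (SD, n = 5). Its log2 fold change of 0.35 had a 95% confidence interval of -0.17 to 0.87. miR-7b-3p (chr17:56243055-56243076) had 80.6 ± 35.6 CPM and 65.7 ± 19.9 CPM, and its log2 fold change of -0.29 an interval of -0.94 to 0.36. Neither was called (adjusted p = 0.434 and 0.661, edgeR quasi-likelihood test, Benjamini-Hochberg adjusted).

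The ratio of miR-7a-1-3p to miR-7a-2-3p sets the 2 hairpins of miR-7a side by side. It ran from 5.03 to 9.43 in sham with a median of 7.80, and it was 4.07, 5.25, 8.44, 4.63 and 4.52 in pMCAO libraries 1 to 5. In 4 of 5 pMCAO libraries it lay below 5 of the 6 sham libraries. The ratio of miR-7b-5p to miR-7b-3p ran from 5.53 to 26.4 in sham (median 10.3, highest without sham replicate 5 13.9) and from 9.44 to 30.03 in pMCAO (median 13.5). Both ratios were chosen after values were seen and carry no test.

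**Figure D4:**
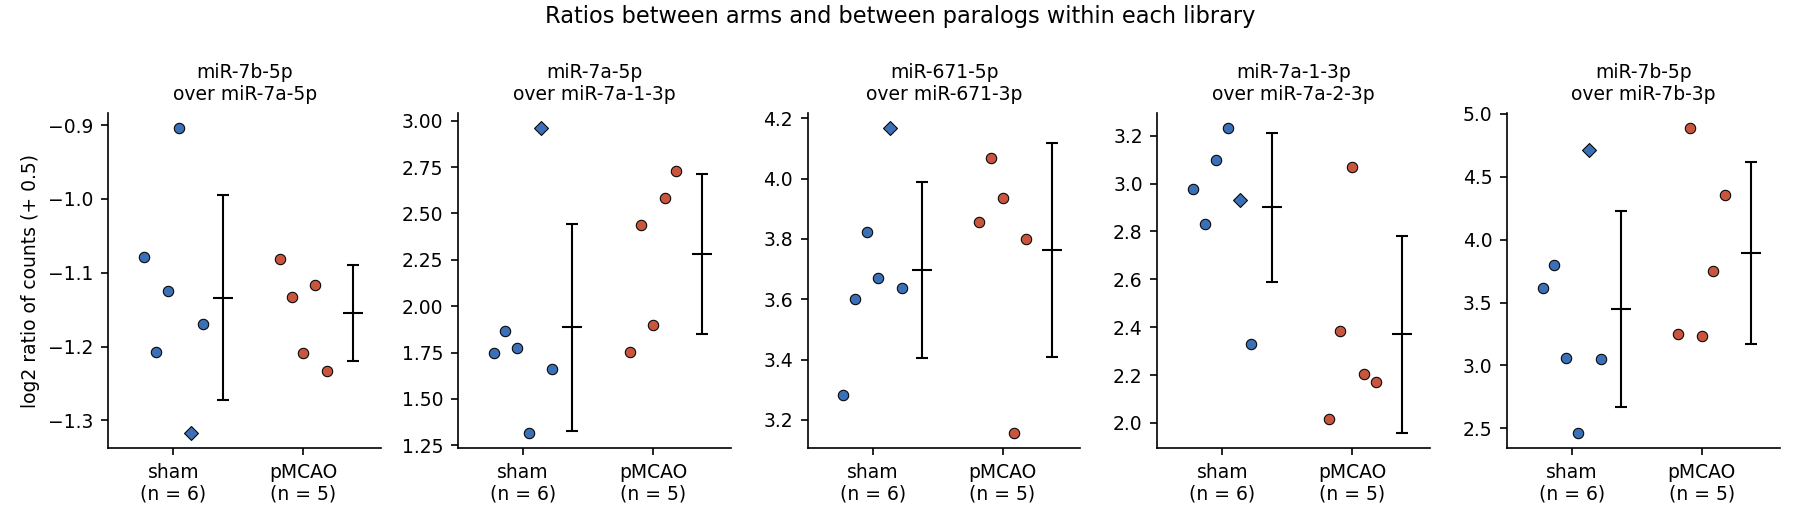
Log2 ratios of counts (with 0.5 added to each count) between paralogs and between arms, 1 point per library (sham blue, n = 6; pMCAO red, n = 5; diamond sham replicate 5), with mean ± SD as black bars and a separate y axis for each ratio. Sham replicate 5 is the highest sham library for 3 of the 5 ratios and the lowest for miR-7b-5p over miR-7a-5p, and the groups overlap in every panel.

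miR-671-5p, the arm that can direct the cutting of Cdr1as, ranked 132nd by level. In sham libraries its lowest, median and highest levels were 511, 588 and 726 CPM. The pMCAO libraries 1 to 5 held 529, 724, 496, 504 and 518 CPM. Replicate 2 stood far above the other 4 pMCAO libraries and at the top of the sham range, while those 4 lay at 496 to 529 CPM and the 2 lowest sham libraries at 511 and 521 CPM. The means were 609 ± 93.8 CPM (SD, n = 6) and 554 ± 95.5 CPM (SD, n = 5), and the fit gave a log2 fold change of -0.14 (SE 0.14, 95% confidence interval -0.43 to 0.16, adjusted p = 0.647, edgeR quasi-likelihood test, Benjamini-Hochberg adjusted). Leaving out pMCAO replicate 2 moved it to -0.22, and the sign turned to 0.035 when libraries were scaled by total counts alone, a scaling that lifted the median of all miRNAs to 0.18.

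miR-671-3p was the least abundant arm, with 32 to 97 counts in a library. It had 32.0, 47.6 and 57.5 CPM in sham (lowest, median and highest), and 36.0, 42.6, 32.0, 56.2 and 36.9 CPM in pMCAO libraries 1 to 5. The groups overlapped almost fully, and pMCAO replicate 4, not replicate 2, was the highest pMCAO library. The means of 47.2 ± 10.2 CPM (SD, n = 6) and 40.7 ± 9.41 CPM (SD, n = 5) gave a log2 fold change of -0.21 (SE 0.20, 95% confidence interval -0.65 to 0.22, adjusted p = 0.624, edgeR quasi-likelihood test, Benjamini-Hochberg adjusted). Counting error alone gives a coefficient of variation of 11.8% in sham and 15.2% in pMCAO for this arm, out of 21.6% and 23.1% observed.

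The ratio of miR-671-5p to miR-671-3p had a median of 12.7 in sham (9.79 to 18.2) and of 14.7 in pMCAO (8.97 to 17.0). The mean log2 ratios differed by 0.067 (exact permutation test, two-sided, p = 0.729, adjusted over 3 ratios 0.771). The 2 arms had a Pearson r of 0.34 within groups, and miR-7a-5p and miR-671-5p one of -0.14, over 11 libraries each.

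**Figure D5:**
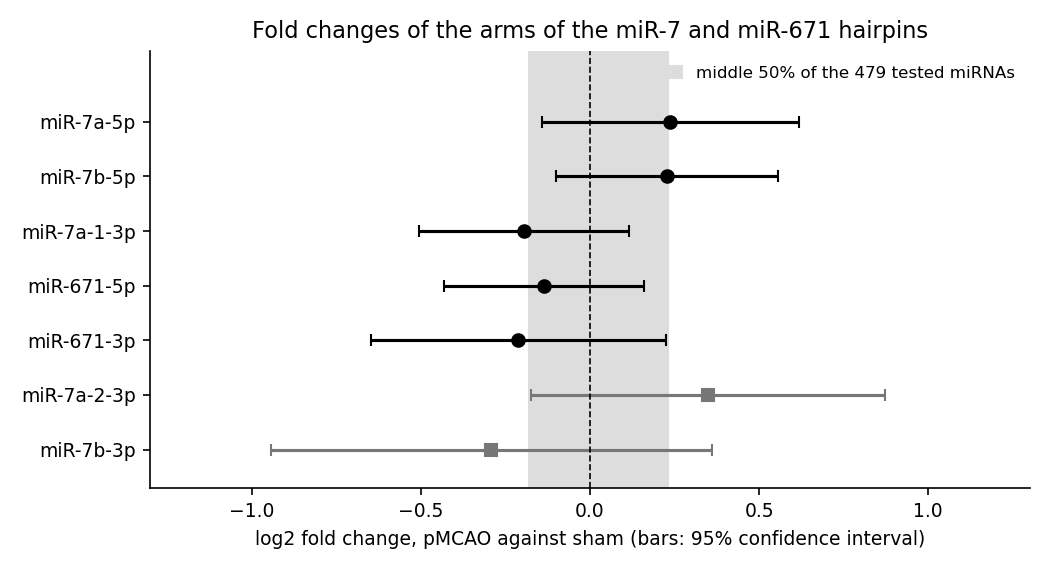
Fitted log2 fold changes of pMCAO against sham (x axis) with 95% confidence intervals as bars, for the 5 arms (black circles) and the other arms of the miR-7 hairpins (grey squares). Every interval includes 0, and the shaded band is the middle 50% of the 479 tested miRNAs.

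The arms differ in base composition, with a GC content of 34.8% for miR-7a-5p, 33.3% for miR-7b-5p, 40.9% for miR-7a-1-3p, 69.6% for miR-671-5p and 66.7% for miR-671-3p. The slope of a library's log2 levels on GC, taken over 417 miRNAs against the mean of all libraries, ran from -0.167 per 10 points of GC in sham replicate 5 to 0.106 in pMCAO replicate 2. It spanned -0.167 to 0.071 in sham and -0.0035 to 0.106 in pMCAO libraries, so it was partly tied to the group. The slope also came from the same counts that were tested. With this slope as a covariate, the log2 fold changes were 0.49 for miR-7a-5p, 0.37 for miR-7b-5p, -0.35 for miR-7a-1-3p, -0.33 for miR-671-5p and -0.46 for miR-671-3p. Each kept its sign and none passed the threshold, with unadjusted p between 0.0202 and 0.0539 and adjusted p between 0.191 and 0.266 (edgeR quasi-likelihood test, Benjamini-Hochberg adjusted). The part of base composition in the differences was not tested beyond this fit.

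The miRNAs most like each arm over the libraries were taken from 441 with a mean of at least 10 CPM, by Pearson r of log2(CPM + 1) within groups. For miR-7a-5p they were miR-7b-5p (r = 0.95), miR-7689-3p (0.88) and miR-374b-5p (0.85). For miR-7b-5p, after miR-7a-5p, they were miR-7689-3p (0.90) and miR-431-5p (0.89). miR-671-5p was most like miR-296-5p (0.92), miR-6540-3p (0.89) and miR-351-5p (0.82), and miR-671-3p was most like miR-877-3p (0.87), miR-342-5p (0.87) and miR-127-3p (0.78). For miR-7a-1-3p they were miR-191-5p (0.96), miR-324-5p (0.93) and miR-744-5p (0.93), which became 0.77, 0.59 and 0.80 without sham replicate 5. In this list the paralogs of miR-7 named each other first, and no arm of a hairpin named the opposite arm of the same hairpin.

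Markers of the cells that could carry miR-7 were given the same account. Of the 8 neuronal miRNAs, 0 were called, where 7.1% of all 479 tested were. At that share, 0 calls in a list this short say little. Their median log2 fold change was -0.11, against 0.00 for all tested miRNAs. With total counts alone it was 0.061, but that scaling lifted the median of all miRNAs to 0.18. miR-124-3p stood at 180835 to 235591 CPM in sham and 148174 to 179928 CPM in pMCAO libraries. Its groups did not overlap, which held for 7.52% of all tested miRNAs. Its log2 fold change was -0.32, with an adjusted p of 0.0523 (edgeR quasi-likelihood test, Benjamini-Hochberg adjusted). The other 7 ran in both directions, and none was called. Negative log2 fold changes were fitted for miR-128-3p (-0.39), miR-9-3p (-0.26), miR-218-5p (-0.12) and miR-9-5p (-0.10). Positive ones were fitted for miR-129-5p (0.32), miR-138-5p (0.21) and miR-153-3p (0.02). Of the 6 neuroendocrine miRNAs, 4 were tested and 0 called, with a median log2 fold change of -0.0045 and a summed level of 64.4 to 280 CPM in sham and 57.6 to 219 CPM in pMCAO. Their defining member miR-375-3p, abundant in pituitary and islet cells, had 4 to 20 counts in a library, near the floor.

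Among miRNAs of leukocytes, 4 of 5 were higher in pMCAO and 0 lower, where 4.38% and 2.71% of all tested were. The 4 were miR-223-3p, miR-142a-3p, miR-142a-5p and miR-155-5p, with log2 fold changes of 2.31, 1.55, 1.46 and 2.79 and adjusted p of 0.00212 to 0.00569 (edgeR quasi-likelihood test, Benjamini-Hochberg adjusted). Of these, miR-142a-3p and miR-142a-5p are the arms of 1 hairpin. In sham libraries miR-155-5p stood near the floor, at 1.90 to 4.49 CPM, with as few as 3 counts in a library. The median of the list was 1.55, and it summed to 2424 to 3722 CPM in sham and 3166 to 6426 CPM in pMCAO libraries. The fifth, miR-150-5p, had a log2 fold change of -0.25 and was not called, and at 2058 to 3328 CPM it made up most of the sham sum. Of 3 oligodendrocyte miRNAs, with a median log2 fold change of -0.20 and a sum of 4287 to 5244 CPM in sham and 2530 to 4955 CPM in pMCAO, miR-338-3p was lower (log2 fold change -0.54, adjusted p = 0.0453, edgeR quasi-likelihood test, Benjamini-Hochberg adjusted). By p it ranked 34th of the 34 miRNAs called. Its groups overlapped, at 2709 to 3892 CPM in sham and 1593 to 2971 CPM in pMCAO libraries. Of 2 endothelial miRNAs both were tested and 0 called, with a median of 0.10 and a sum of 9192 to 13016 CPM in sham and 9518 to 13653 CPM in pMCAO. Of 4 erythrocyte miRNAs 2 were tested and 0 called, with a sum of 49.2 to 5375 CPM in sham and 639 to 4734 CPM in pMCAO. Their median of 1.07 became 3.73 without sham replicate 1 and 0.43 without pMCAO replicate 3. The part of these cell types in the levels of miR-7 and miR-671 was not tested.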

How the data were processed

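Small RNA was enriched with the miRVana kit, made into libraries with an Ion Total RNA-Seq kit and sequenced on an Ion Torrent instrument. The authors mapped the reads between 20 and 30 bp in length to mm10 using Bowtie, counted them with HTSeq over miRBase entries, and deposited raw counts of 1907 miRNA names per library. Settings for reads that match several places are not given in the sources used here. miR-7a-5p, which lies at 2 loci, had 1456 counts or more in each library. A read that lies within this mature arm matches both loci, and how such reads were divided is unknown. The labels number the replicates without naming animals, so p-values measure only the spread between these samples, which may be technical.

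Samples were grouped by their labels. Tests were run in edgeR 4.0.16 under R 4.3.3 (filterByExpr with a minimum count of 10 and a minimum total of 15, TMM, glmQLFit and glmQLFTest without covariates, Benjamini-Hochberg threshold 0.05 over 479 miRNAs). Standard errors are the log2 fold change over the square root of F, and intervals are at 95%. Ratios were log2((count + 0.5)/(count + 0.5)), tested by exact permutation over all arrangements of the libraries, with a smallest possible p of 0.00216. Alternatives were DESeq2 1.42.0, other scalings, filters, thinning (seed 1), the replicate number as a block, and each library left out. The GC covariate, for 417 miRNAs with a sequence, and the likeness without sham replicate 5 were added after seeing the data. The members and lists were chosen with earlier results of these data known. Genes named are the members, other arms of their hairpins, the lists of cell type markers, and the 3 miRNAs most like each member. A list of miRNAs subject to target-directed decay is not reported here. Positions are GRCm38, which is mm10, from GENCODE vM21 and RefSeq. On simulated counts of this comparison, 468 miRNAs were tested, of which 195 were changed 2-fold or 4-fold. The fit recovered 95.2% of those changed 2-fold and 100% of those changed 4-fold, with 3.06% of calls false. It made 0 calls when none was changed. In the measured data 7.1% were called, and the adjusted threshold is stricter where fewer miRNAs change, so recovery there may be lower. No change smaller than 2-fold was simulated, so recovery of changes of the size fitted for the arms described here was not measured. The simulated counts also held no GC slope and no library set apart from its group. Intervals and floors cover counting error only where they are of counts, and the reads carry no molecular identifiers.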

Additional observations from a re-analysis of the deposited data

Results flagged for a closer look

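Of 24 groups of values checked for a sample far from its group, 2 held one, where chance gives 1.2. In pMCAO replicate 2, miR-671-5p stood at 9.50 on the log2(CPM + 1) scale, and the other 4 pMCAO libraries at 8.96 to 9.05. In the same library the GC slope was the highest of the 11, at 0.106 log2 units per 10 points, and miR-671-3p was not set apart, at 42.6 CPM. In sham replicate 5, the log2 ratio of miR-7a-5p to miR-7a-1-3p was 2.96, and the other 5 sham libraries gave 1.32 to 1.87. This library had the lowest GC slope, -0.167. For 14 of 151 hairpins, among them Mir7-1, Mir7-2 and Mir7b, its arm ratio departed from the other sham libraries by at least as much as for Mir7-1. The part of base composition in either value was not tested.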

How the results depend on the processing

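Over 20 alternatives, 0 of 100 fits of the 5 arms passed the threshold, and 1 changed sign, miR-671-5p at 0.035 with total counts alone. That scaling gave 0.42 for miR-7a-5p and 0.41 for miR-7b-5p, with unadjusted p of 0.0354 and 0.0225 (edgeR), and -0.019 for miR-7a-1-3p and -0.047 for miR-671-3p. Leaving out 1 library gave log2 fold changes of 0.13 to 0.35 for miR-7a-5p, 0.15 to 0.33 for miR-7b-5p, -0.29 to -0.13 for miR-7a-1-3p, -0.22 to -0.079 for miR-671-5p and -0.35 to -0.14 for miR-671-3p. The log2 ratio of miR-671-5p to miR-671-3p turned to -0.038 with libraries thinned to 744877 counts. With 1 library left out it ran from -0.016 to 0.22, that of miR-7b-5p to miR-7a-5p from -0.058 to 0.025, and that of miR-7a-5p to miR-7a-1-3p from 0.28 to 0.61. The count of all miRNAs called, 34, was 18 with at least 10 counts in every library, 19 after thinning, 19 with the replicate block, 9 with the GC covariate and 45 with DESeq2 (29 higher, 16 lower), and was 16 to 36 with 1 library left out. Fewer miRNAs were tested in some of these, and the cause was not tested otherwise. Total counts alone gave 43 higher and 1 lower, and upper-quartile factors 23 higher and 4 lower. Same-numbered samples correlated at -0.077 to 0.23 and samples with other numbers at -0.25 to 0.23. Of 5 sham libraries, 0 correlated best with their own number. Pairing by number was thus not seen, and 5 pairs are too few to exclude it. With the replicate block the log2 fold changes were 0.20 and 0.18 for miR-7a-5p and miR-7b-5p and -0.15, -0.084 and -0.14 for miR-7a-1-3p, miR-671-5p and miR-671-3p, and no call changed. For the ratios, 5 pairs allow no p below 0.0625. Depth limits miR-671-3p most, with as few as 32 counts in a library.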
